A study of Mus musculus with 8 samples.

Results

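Translation initiation factor genes were followed in activated mouse CD8+ T cells whose libraries are labelled dKO or WT. The members were all entries of the count table whose symbol starts with Eif followed by a digit from 1 to 6. The eIF2 alpha kinase genes (symbols starting with Eif2ak) and the eIF2 gamma genes (Eif2s3) were left out. This gave 49 of 24976 gene symbols, of which 5 belong to eIF1, 9 to eIF2, 14 to eIF3, 16 to eIF4, 4 to eIF5 and 1 to eIF6. The grouping goes by name, and some of the products act outside initiation. In total 48 of the 49 passed the filter on low counts, and Eif4e1b did not.

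The dKO group comes from mice with Cd8Cre, a Cre named for the Cd8 gene, and floxed alleles of both Nr4a1 and Nr4a2, a pair of nuclear receptor genes induced by T cell receptor signals. The WT group comes from their littermates. Naive CD8+ T cells of both were cultured with anti-CD3 at 2 μg per ml, anti-CD28 at 1 μg per ml and IL2 at 10 ng per ml. They were harvested after 48 h or 24 h as bulk RNA, with 2 libraries in each of dKO 48 h, WT 48 h, dKO 24 h and WT 24 h. The strain, the age and any Cre or floxed allele in WT littermates are not stated. The labels do not say whether replicates came from separate animals or cultures, so p-values measure only the spread between these libraries.

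Initiation loads the initiator tRNA onto the small ribosomal subunit and brings that subunit to the start codon of an mRNA. eIF2 carries the tRNA and is recharged by its exchange factor eIF2B, eIF3 is the large scaffold on the small subunit, and the eIF4 proteins bind the mRNA cap and unwind its leader. eIF1, eIF1A and eIF5 control start codon choice, eIF5B joins the large subunit, and eIF6 keeps the subunits apart. Naive T cells make little protein and raise translation strongly on activation, in part through mTORC1, which frees the cap-binding protein from the eIF4E-binding proteins.

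Total counts were 5000952 to 21686236 per library. The highest was WT 48 h replicate 2, and the next highest was dKO 24 h replicate 1 with 8278058. Levels below are counts per 1e6 counts scaled by TMM factors (CPM), on which 3 counts equal 0.158 to 0.558 CPM. The targeted genes did not both follow the dKO label. At 48 h Nr4a1 was lower in both dKO libraries than in both WT libraries, and at 24 h the genotypes overlapped. Nr4a1 was at 635 and 669 CPM in dKO 48 h, 881 and 779 in WT 48 h, 533 and 506 in dKO 24 h, and 526 and 276 in WT 24 h. Nr4a2 was higher in the libraries labelled dKO at 48 h (log2 fold change 1.38, SE 0.176, edgeR adjusted p = 0.00982) and at 24 h (1.35, SE 0.173, adjusted p = 0.00836). Counts over a whole gene need not see a floxed deletion, so the deletion was not checked by them, and each direction below rests on the labels. Y-linked genes summed to 67.3 to 95.2 CPM in dKO and 1.26 to 1.69 CPM in WT libraries, so genotype and sex cannot be told apart. Cd8a stood at 510 to 853 CPM and Cd4 at no more than 0.11 CPM. Genes of ribosomal proteins took 7.04% of the counts of WT 48 h replicate 2, 11.0% of WT 48 h replicate 1 and 11.7 to 13.4% of the other 6 libraries.

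Together the members took 1.29% and 1.32% of all counts in dKO 48 h, 0.997% and 0.939% in WT 48 h, 1.40% and 1.35% in dKO 24 h, and 1.20% and 1.41% in WT 24 h. The WT 48 h libraries held the lowest shares. On the TMM scale the summed level was 13315 and 13573 CPM in dKO 48 h, 11951 and 10721 in WT 48 h, 12643 and 12568 in dKO 24 h, and 11604 and 12094 in WT 24 h. For the members the highest library stood a median of 1.58-fold above the lowest, against 1.96-fold over all 12742 tested genes. A mean of at least 50 counts was reached by 47 members and by 9215 genes in all, so these medians cover unlike counts. The ratio of the highest to the lowest library was below 1.5 in 19 of 48 members. That ratio ran from 1.23 for Eif5, whose product activates the GTPase of eIF2, to 7.57 for Eif4ebp3, a binding protein of eIF4E with few counts. In bulk RNA, fewer cells of a type and less RNA per cell cannot be told apart.

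**Figure D1:**
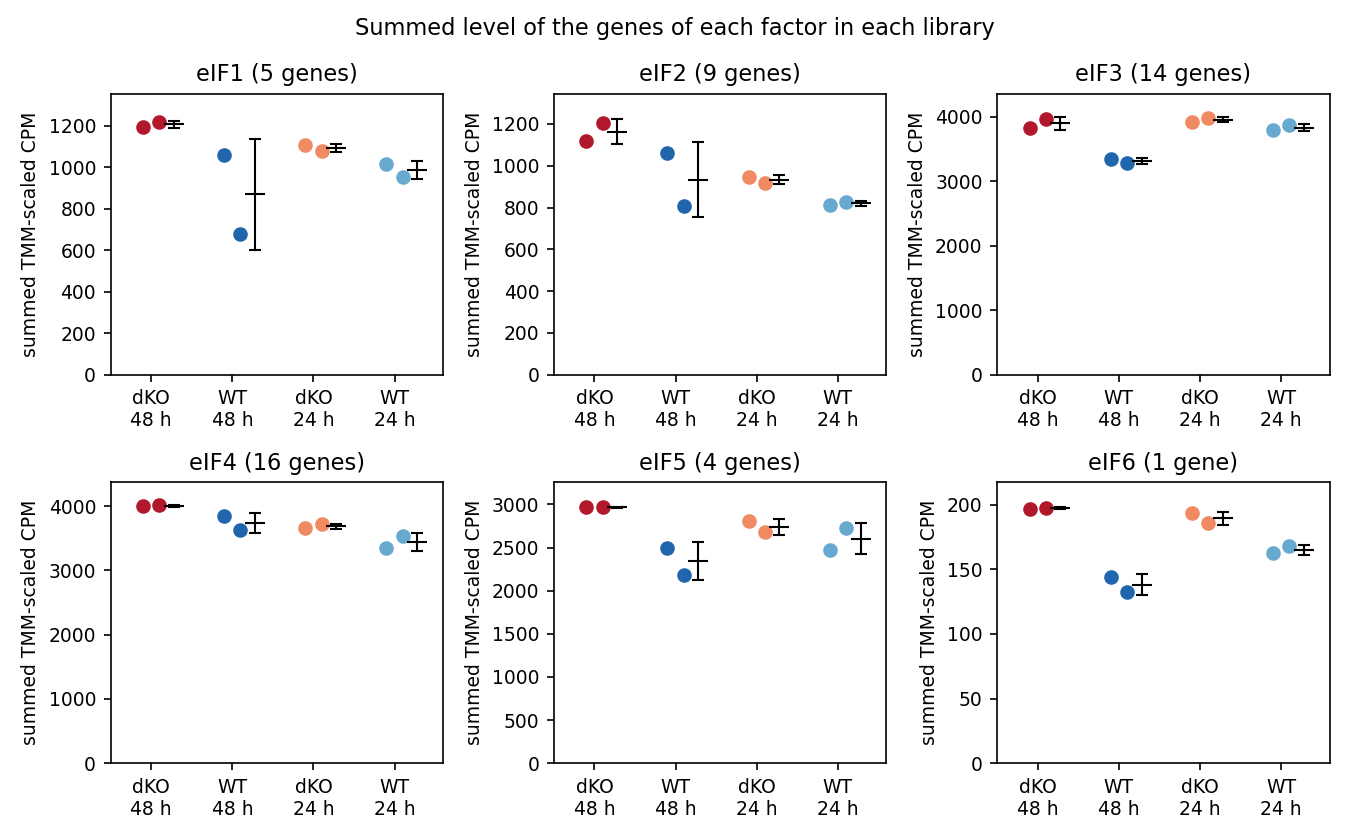
Summed level (TMM-scaled CPM) of the genes of each factor in each library, 1 panel per factor; points are libraries, and bars give the mean with its SD (n = 2 per group). Both dKO 48 h libraries lie above both WT 48 h libraries in all 6 panels, for eIF3 at 3830 and 3971 against 3343 and 3282 CPM.

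At 48 h, 4 members rose in libraries labelled dKO relative to WT and none fell: Eif4ebp1, Eif3g, Eif2b1 and Eif6. They come from 4 factors. Called means an adjusted p (Benjamini-Hochberg over all 12742 tested genes) below 0.05 in edgeR's quasi-likelihood test. Over all tested genes 3.19% were called higher and 8.04% lower (11.2% in all), and of the 48 tested members 8.33% were called higher. Of the members 37 had a positive log2 fold change (77.1%, against 48.2% of all genes), and 17 were higher at an unadjusted p below 0.05 (35.4%, against 14%). In 31 members both dKO libraries lay above both WT libraries (64.6%, against 28.3% of all genes), and in 6 both lay below (12.5%, against 28.6%). At an unadjusted p below 0.05, 3 members were lower (6.25%, against 19.1%). The median log2 fold change was 0.28 for the members and -0.03 for all genes.

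Eif4ebp1 encodes 4E-BP1, which holds eIF4E away from the scaffold eIF4G until mTORC1 phosphorylates it. The gene (GRCm38, chromosome 8, 27260329 to 27276674, plus strand) was at 59.7 and 56.9 CPM in dKO 48 h, 39.0 and 32.4 in WT 48 h, 52.8 and 48.1 in dKO 24 h, and 51.0 and 47.9 in WT 24 h. The WT 48 h libraries were the low ones, below the other 6. At 48 h the gene was 1.64-fold higher in dKO (log2 0.72, SE 0.148, edgeR adjusted p = 0.017), and at 24 h the log2 difference was 0.03 (SE 0.148, adjusted p = 0.984).

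Eif3g encodes an eIF3 subunit with an RNA recognition motif. The gene (chromosome 9, 20894349 to 20898623, minus strand) was at 225 and 254 CPM in dKO 48 h, 164 and 135 in WT 48 h, 260 and 243 in dKO 24 h, and 246 and 258 in WT 24 h. Again the WT 48 h libraries stood below the other 6, and the genotypes overlapped at 24 h. It was 1.60-fold higher in dKO at 48 h (log2 0.68, SE 0.161, edgeR adjusted p = 0.0275), with a log2 difference of 0.00 at 24 h.

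Eif2b1 encodes the alpha subunit of eIF2B, a regulatory part of the exchange factor. The gene (chromosome 5, 124570213 to 124579131, minus strand) was at 99.3 and 105.5 CPM in dKO 48 h, 73.6 and 55.2 in WT 48 h, 85.8 and 82.7 in dKO 24 h, and 62.7 and 78.7 in WT 24 h. All 4 dKO libraries lay above all 4 WT libraries. The 48 h difference was 1.60-fold (log2 0.68, SE 0.176, edgeR adjusted p = 0.039), and that over both times missed the threshold (log2 0.47, SE 0.125, adjusted p = 0.0513).

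Eif6, whose product binds the large ribosomal subunit and blocks its early joining, lies on chromosome 2 (155819832 to 155826925, minus strand). It was at 196 and 198 CPM in dKO 48 h, 144 and 133 in WT 48 h, 193 and 186 in dKO 24 h, and 162 and 168 in WT 24 h. The dKO libraries were above the WT libraries at each time. At 48 h it was 1.43-fold higher in dKO (log2 0.51, SE 0.139, edgeR adjusted p = 0.0433), and over both times it missed the threshold (log2 0.36, SE 0.098, adjusted p = 0.0551).

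Just outside the threshold at 48 h stood Eif4e2, whose product 4EHP binds caps without driving initiation, with a log2 difference of 0.57 (SE 0.163, edgeR adjusted p = 0.053). Eif2b4, the delta subunit of eIF2B, had 0.47 (SE 0.137, adjusted p = 0.0559). With 1 library left out, the 48 h log2 difference ran from 0.59 to 0.83 for Eif4ebp1 and from 0.56 to 0.81 for Eif3g. For Eif2b1 it ran from 0.48 to 0.88, and for Eif6 from 0.46 to 0.56. Which library was left out changed the number of members called and the share of all genes called. Fitting the 4 libraries of 48 h alone called 0 members and 3.66% of all genes.

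**Figure D2:**
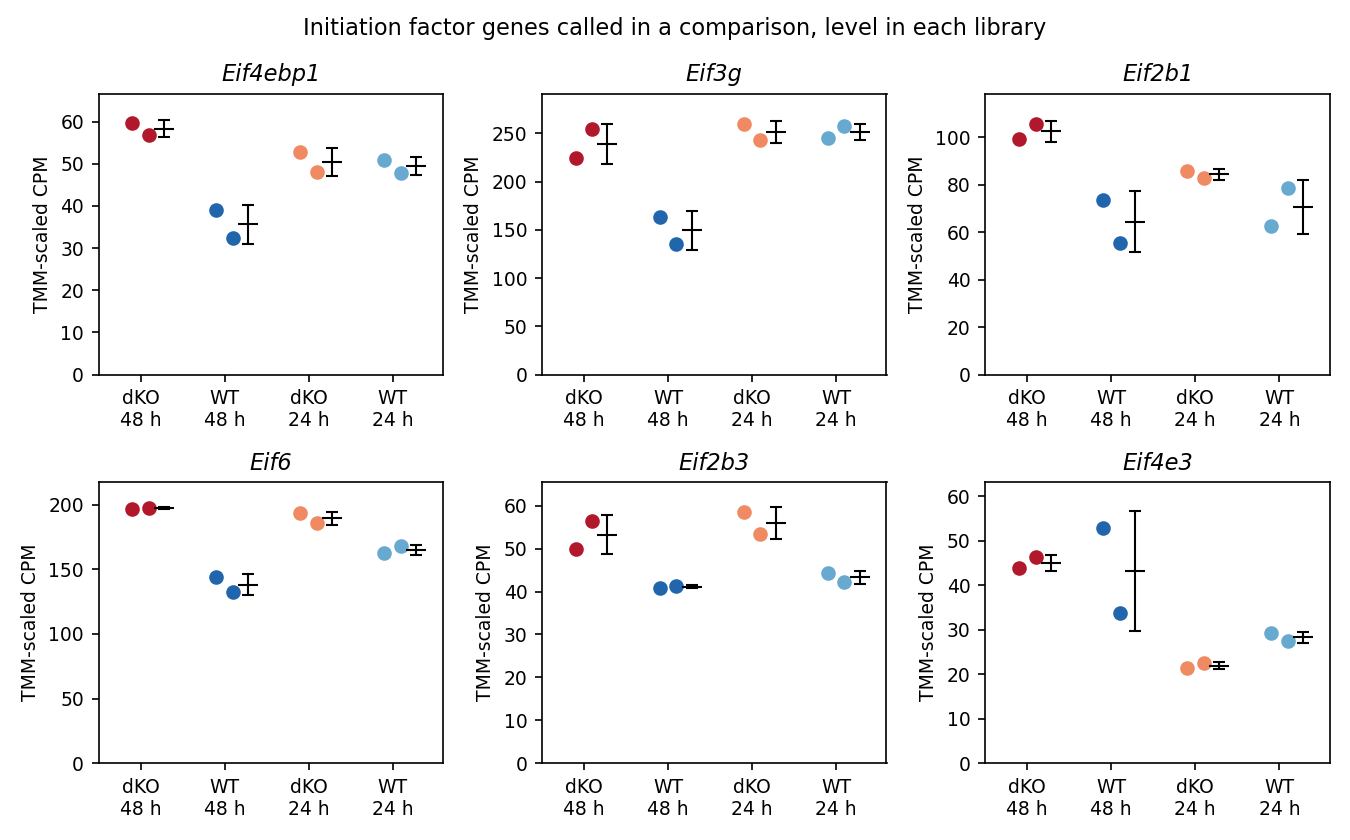
Level (TMM-scaled CPM) of the 6 members called in any comparison, in each library; points are libraries, and bars give the mean with its SD (n = 2 per group). The WT 48 h libraries are the lowest for Eif4ebp1 (39.0 and 32.4 CPM) and Eif3g (164 and 135 CPM), while Eif4e3 is lowest in dKO 24 h (21.3 and 22.5 CPM).

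By factor, all 5 eIF1 genes had higher values in both dKO 48 h libraries than in both WT 48 h libraries, and none was called. Over all tested genes 28.3% lay above in this way and 3.19% were called higher at 48 h. Eif1, which guards start codon choice, was at 507 and 492 CPM in dKO 48 h, 447 and 282 in WT 48 h, 519 and 532 in dKO 24 h, and 495 and 433 in WT 24 h. WT 48 h replicate 2 was the low library. Eif1ax, an X-linked gene for eIF1A, was at 361 and 391 CPM in dKO 48 h, 309 and 182 in WT 48 h, 283 and 255 in dKO 24 h, and 241 and 241 in WT 24 h. Its 48 h log2 difference was 0.62 (SE 0.228, edgeR adjusted p = 0.0986).

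Of the 9 eIF2 genes, 1 was called higher at 48 h (11.1%, against 3.19% of all genes). All 9 had positive log2 differences, between 0.10 and 0.68, as had 48.2% of all genes. The 5 genes of eIF2B were all above WT in both dKO 48 h libraries, as were 28.3% of all genes. Their median difference was 0.47. Eif2b4 was at 44.1 and 44.6 CPM in dKO 48 h, 31.4 and 32.5 in WT 48 h, 30.6 and 32.0 in dKO 24 h, and 32.2 and 30.3 in WT 24 h, so that its dKO 48 h libraries stood apart from the other 6. Eif2s1, which encodes the alpha subunit of eIF2 with its regulatory phosphorylation site, was at 386 and 401 CPM in dKO 48 h, 342 and 277 in WT 48 h, 333 and 320 in dKO 24 h, and 296 and 297 in WT 24 h (48 h log2 difference 0.35, SE 0.162, edgeR adjusted p = 0.163).

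Of the 14 eIF3 genes, 12 had positive differences at 48 h (85.7%, against 48.2% of all genes). In 9 the dKO libraries lay above WT without overlap (64.3%, against 28.3%), and 1 was called higher (7.14%, against 3.19%). The subunits differed in direction. Eif3h, an MPN domain subunit, was at 453 and 478 CPM in dKO 48 h, 367 and 240 in WT 48 h, 396 and 383 in dKO 24 h, and 364 and 383 in WT 24 h (48 h log2 difference 0.62, SE 0.205, adjusted p = 0.0775). Eif3c, a core PCI subunit, was at 225 and 228 CPM in dKO 48 h, 254 and 364 in WT 48 h, 328 and 374 in dKO 24 h, and 309 and 283 in WT 24 h. Its 48 h log2 difference was -0.45 (SE 0.193, edgeR adjusted p = 0.138). Eif3a, the largest subunit, was at 369 and 346 CPM in dKO 48 h and 357 and 617 in WT 48 h, so only WT 48 h replicate 2 stood above the others at that time (log2 difference -0.45, SE 0.235, adjusted p = 0.211).

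At 48 h the 15 tested eIF4 genes split into 8 with positive differences (53.3%, against 48.2% of all genes) and 7 with negative ones. Among them 1 was called higher (6.67%, against 3.19%). The helicase gene Eif4a1 was at 1373 and 1387 CPM in dKO 48 h, 1333 and 1044 in WT 48 h, 1298 and 1309 in dKO 24 h, and 1145 and 1172 in WT 24 h. Eif4e, for the cap-binding protein itself, was at 187 and 202 CPM in dKO 48 h, 177 and 120 in WT 48 h, 170 and 155 in dKO 24 h, and 143 and 159 in WT 24 h (48 h log2 difference 0.39, SE 0.192, adjusted p = 0.184). The scaffold genes ran the other way: Eif4g1 was at 157 and 155 CPM in dKO 48 h against 156 and 305 in WT 48 h, and Eif4g3 at 62.5 and 63.0 against 74.0 and 124 CPM. Neither was called (edgeR adjusted p = 0.161 for Eif4g1 and 0.0786 for Eif4g3), and in both WT 48 h replicate 2 was the high library.

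The 3 genes of eIF4E-binding proteins differed from each other at 48 h, by log2 values of 0.72 for Eif4ebp1, -0.25 for Eif4ebp2 and -1.82 for Eif4ebp3. Eif4ebp3 rested on 9 counts in dKO 48 h and 62 in WT 48 h, 56 of them in replicate 2, the library with the highest total count. Its levels were 0.893 and 0.390 CPM in dKO 48 h and 1.03 and 2.95 in WT 48 h. The ratio was 0.25 after scaling for library size (95% exact interval 0.109 to 0.506), and the gene was not called (edgeR adjusted p = 0.0914). Eif4e1b, a germ-line relative of eIF4E, had 1 count in dKO 48 h and 30 in WT 48 h, a ratio of 0.0574 (0.00141 to 0.346), and 4 counts in dKO 24 h and 2 in WT 24 h. Such intervals cover counting error only.

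Of the 4 eIF5 genes none was called, where 11.2% of all genes were at 48 h. Eif5a, which encodes a hypusine-bearing factor of elongation and termination, was at 2445 and 2415 CPM in dKO 48 h, 2000 and 1644 in WT 48 h, 2209 and 2101 in dKO 24 h, and 1962 and 2186 in WT 24 h (48 h log2 difference 0.42, SE 0.196, edgeR adjusted p = 0.17). Both dKO 48 h libraries stood above all others. Eif5b was at 101 and 102 CPM in dKO 48 h, 109 and 154 in WT 48 h, 126 and 123 in dKO 24 h, and 122 and 103 in WT 24 h, with a difference of -0.38 (SE 0.18, adjusted p = 0.172).

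**Figure D3:**
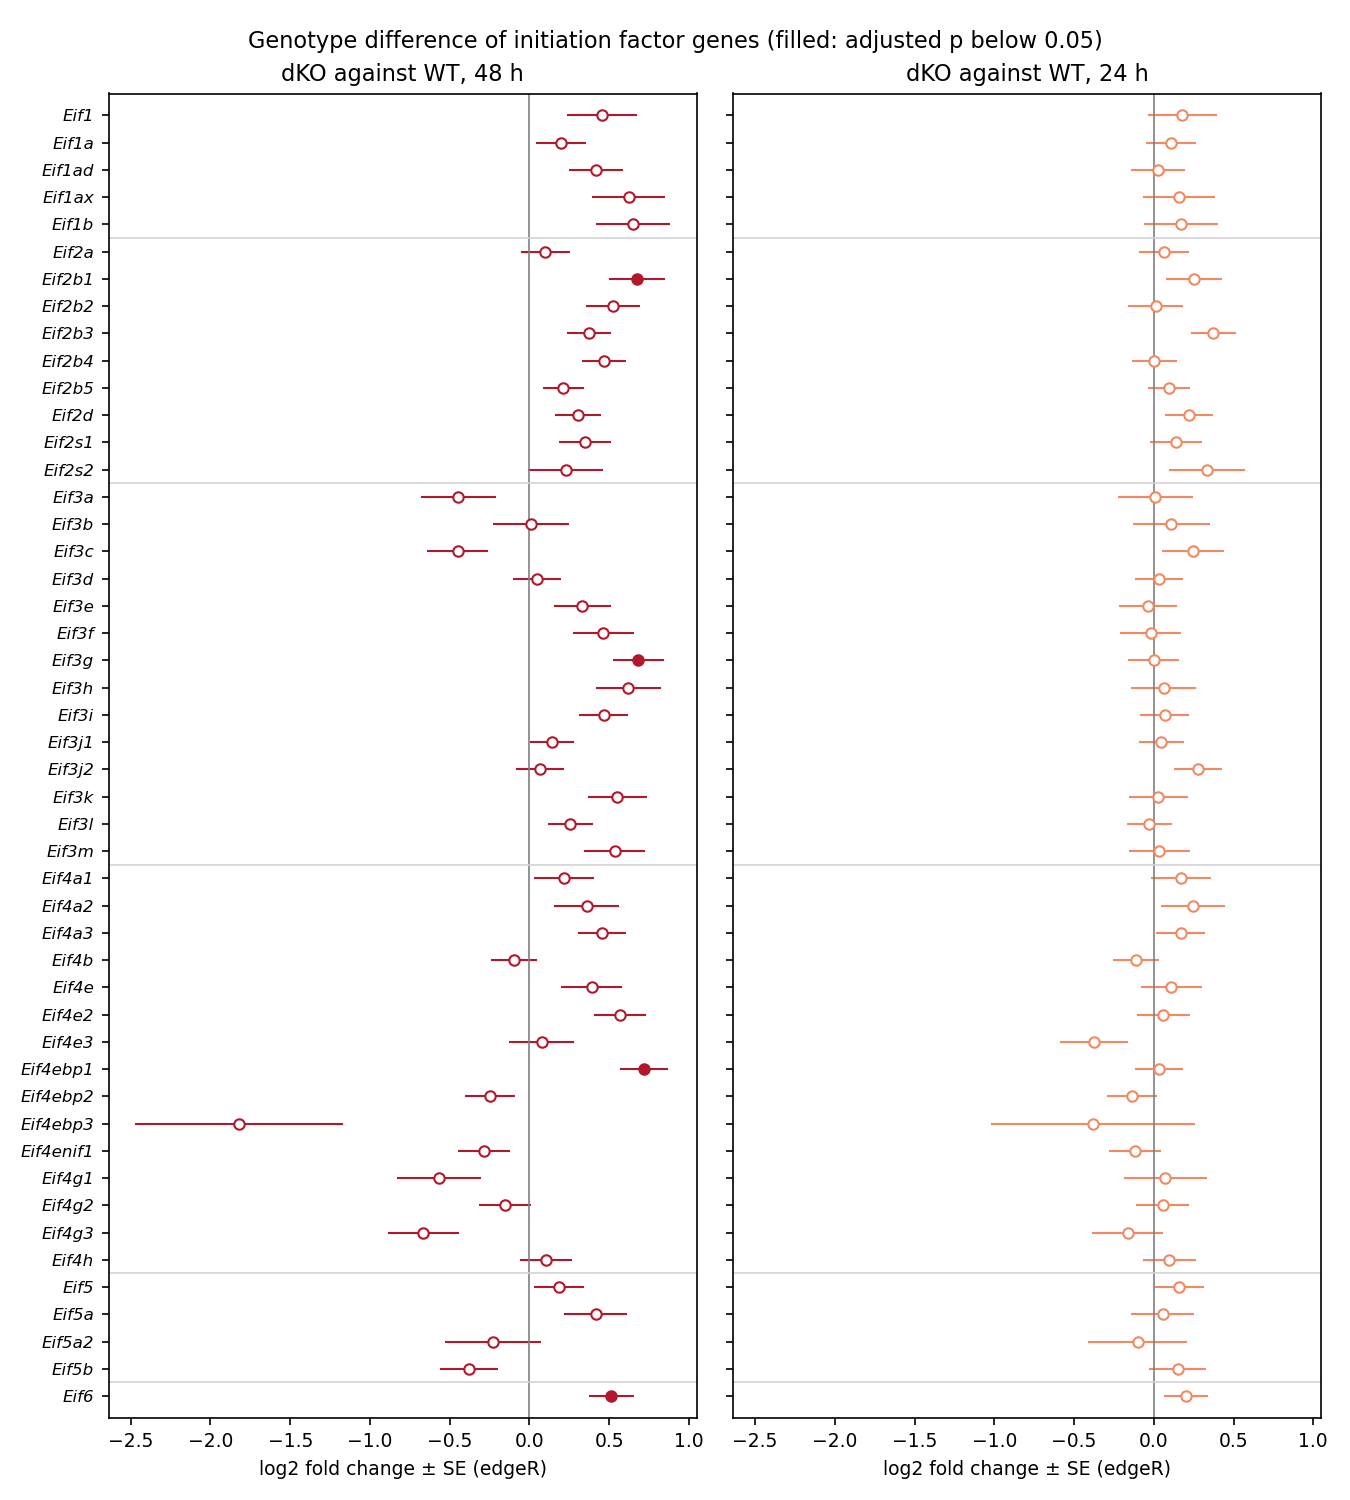
Log2 fold change with its SE (edgeR), libraries labelled dKO against WT, of the 48 tested members at 48 h (left) and 24 h (right); filled points have an adjusted p below 0.05. At 48 h 37 of 48 points lie above 0 and 4 are filled, and at 24 h no point is filled.

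The 48 h difference went with transcript length and with the spread inside WT 48 h. Over the 48 members the log2 difference at 48 h had a Spearman correlation of -0.57 with the length of the longest coding transcript, and over 11044 genes -0.50. The 17 members of up to 2000 bases had a median of 0.47, the 20 of 2000 to 4000 bases 0.22, and the 11 longer ones -0.23. The same medians over all genes were 0.34, 0.05 and -0.34. At 24 h the correlation was -0.00 over the members and -0.16 over all genes. The median absolute log2 difference between the replicates, over the members, was 0.0733 in dKO 48 h, 0.352 in WT 48 h, 0.0656 in dKO 24 h and 0.126 in WT 24 h. Within WT 48 h, replicate 2 minus replicate 1 was -0.84 for Eif1b, 0.97 for Eif4g1 and 0.79 for Eif3a, and correlated with length at 0.41 over the members and 0.53 over all genes. The correlation of the 48 h difference with length was -0.54 over the members and -0.53 over all genes without WT 48 h replicate 1. Without replicate 2 it was -0.40 over the members and -0.23 over all genes. Genes share their libraries, so these are descriptions. Length, the WT 48 h libraries and the lower ribosomal protein share of WT 48 h moved with the result, and their part in it was not tested.

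Sums over some lists of cell type markers also differed between the genotype labels at 48 h. Such sums do not show which cells the RNA came from. The 7 myeloid markers in the table summed to 5.33 to 5.51 CPM in dKO 48 h and 11.6 to 13.8 CPM in WT 48 h, with Lyz2, Fcgr1 and Clec9a at 0 in every library. Most of that sum was Cd14, at 4.91 and 4.55 CPM in dKO 48 h and 12.3 and 10.0 in WT 48 h. The 7 red cell, platelet and stroma markers summed to 6.24 to 6.55 CPM in dKO 48 h and 9.74 to 12.8 in WT 48 h, with Hbb-bs, Hba-a1 and Col3a1 at 0 throughout. Pecam1 held most of that sum, at 5.21 and 4.68 CPM in dKO 48 h and 5.81 and 9.80 in WT 48 h. The other way ran the 4 NK cell markers, with 36.8 CPM in both dKO 48 h libraries and 18.8 to 24.0 in WT 48 h. Most of that sum was Eomes, at 34.8 CPM in both dKO 48 h libraries and 17.1 and 22.9 in WT 48 h. Klre1 overlapped between the groups, and Ncr1 was at 0. The sum of the 8 CD8 T cell markers was also higher, with 3362 to 3450 CPM in dKO 48 h and 2459 to 2912 in WT 48 h. Thy1 was the largest part of that sum (48 h log2 difference 0.43, SE 0.181). Cd3e overlapped between the groups, and Cd8a and Cd3g lay only slightly above WT 48 h replicate 1. The sums of B cell markers and of CD4 or regulatory T cell markers overlapped between the groups. The part of these in the members' differences was not tested.

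**Figure D4:**
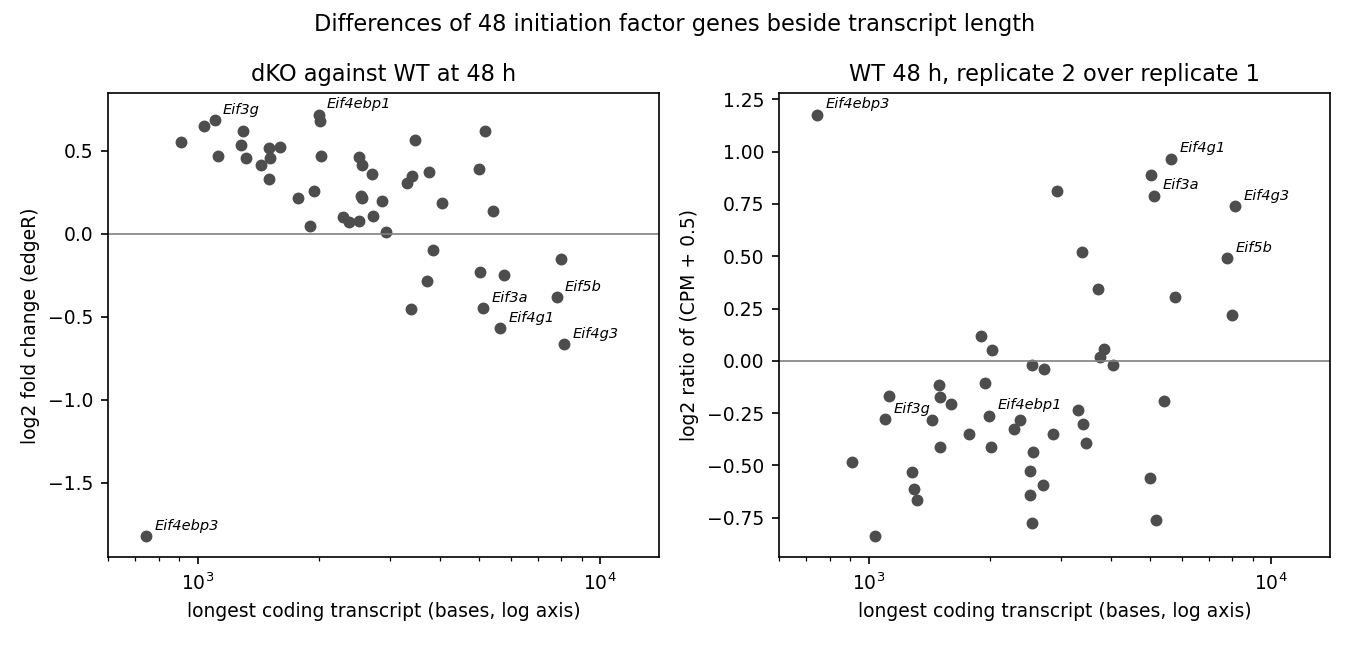
Log2 values of the members against the length of the longest coding transcript (bases, log axis), 1 point per member; the panels give dKO against WT at 48 h and replicate 2 minus replicate 1 of WT 48 h. The Spearman correlations are -0.57 and 0.41.

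At 24 h no member was called between the genotype labels by edgeR, and 0.432% of all tested genes were (0.361% higher, 0.0706% lower). At an unadjusted p below 0.05 stood 1 member, against 6.98% of all genes, and DESeq2 also called 0. Of the members 38 had positive differences (79.2%, against 51.2%), 19 lay above WT without overlap (39.6%, against 24.3%), with a median of 0.06 against 0.01 for all genes. The 4 members with the smallest p were Eif2b3, Eif3j2, Eif4e3 and Eif2d. Eif2b3, for a subunit of eIF2B, was at 58.6 and 53.3 CPM in dKO 24 h and 44.4 and 42.2 in WT 24 h (log2 difference 0.37, SE 0.14, edgeR adjusted p = 0.545). Eif4e3, for a relative of eIF4E, was lower in both dKO 24 h libraries, at 21.3 and 22.5 CPM, than in WT 24 h, at 29.2 and 27.5 (-0.37, SE 0.213, edgeR adjusted p = 0.844). Eif3j2, for a loosely held eIF3 subunit, was at 72.3 and 78.1 CPM in dKO 24 h and 65.1 and 59.0 in WT 24 h (log2 difference 0.28, SE 0.152, edgeR adjusted p = 0.834). Eif2d, whose product can place tRNA without eIF2, was at 46.4 and 48.5 CPM in dKO 24 h and 38.4 and 43.0 in WT 24 h (0.22, SE 0.148, adjusted p = 0.88).

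Over both times 1 member was called, Eif2b3, against 7.8% of all genes (2.28% higher, 5.52% lower). It encodes the gamma subunit of eIF2B and lies on chromosome 4 (117019402 to 117087306, plus strand). It was at 50.02 and 56.5 CPM in dKO 48 h, 40.8 and 41.3 in WT 48 h, 58.6 and 53.3 in dKO 24 h, and 44.4 and 42.2 in WT 24 h. All 4 dKO libraries lay above all 4 WT libraries, as for 8 members (16.7%, against 5.25% of all genes), and no member showed the opposite order (3.26% of all genes). The gene was 1.30-fold higher in dKO (log2 0.37, SE 0.0987, edgeR adjusted p = 0.0485), and the call ended under 12 of 15 alternatives, DESeq2 among them. Without WT 48 h replicate 1 the count was 33 (42.3% of all genes called), without replicate 2 it was 5 (11.9%), and without any 1 of the other 6 libraries it was 0. The others among the 4 smallest p were Eif2b1, Eif6 and Eif4ebp1, with a log2 difference of 0.38 for Eif4ebp1 (SE 0.105, edgeR adjusted p = 0.0575).

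Between the times, 1 member fell in WT: Eif3g, with the values given above, was lower at 48 h than at 24 h (log2 -0.75, SE 0.161, edgeR adjusted p = 0.0138). Among all genes 3.5% were called lower and 7.87% higher (11.4% in all). Over the 48 members 22 had positive differences (45.8%, against 50.1%). Of the 14 eIF3 genes 10 had negative differences, with a median of -0.24, against -0.02 for all members and 0.00 for all genes. Eif3f, an MPN domain subunit, was at 265 and 184 CPM in WT 48 h and 333 and 360 in WT 24 h (log2 difference -0.63, SE 0.192, adjusted p = 0.0646). Eif3k, a small PCI subunit, was at 194 and 139 CPM in WT 48 h and 256 and 235 in WT 24 h (-0.56, SE 0.186, edgeR adjusted p = 0.0863). Both were lower in each WT 48 h library than in each WT 24 h library. Eif4ebp1 had -0.48 (SE 0.149, edgeR adjusted p = 0.0685). The call of Eif3g was lost without WT 24 h replicate 2 (adjusted p = 0.075) and when WT libraries were fitted alone (adjusted p = 0.141). Without WT 48 h replicate 1 the members called were 6 higher and 10 lower, with 31.8% of all genes called, and without replicate 2 they were 4 higher and 2 lower, with 22.6%.

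In libraries labelled dKO, 1 member rose with time, Eif4e3, where 1.76% of all genes were called higher and 1.88% lower (3.63% in all). Its product is an atypical cap-binding relative of eIF4E, and the gene lies on chromosome 6 (99625135 to 99666771, minus strand). It was at 43.8 and 46.3 CPM in dKO 48 h, 52.8 and 33.7 in WT 48 h, 21.3 and 22.5 in dKO 24 h, and 29.2 and 27.5 in WT 24 h. Both 48 h groups lay above both 24 h groups. The gene was 2.06-fold higher at 48 h in dKO (log2 1.04, SE 0.21, edgeR adjusted p = 0.0289), and in WT the log2 difference was 0.59 (SE 0.206, adjusted p = 0.102). The call was lost without any 1 of the 4 dKO or 2 WT 24 h libraries, and without either WT 48 h library 10 members were called, 7 higher and 3 lower, with 24.9% of all genes called without replicate 1 and 25% without replicate 2.

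Other members with small p in dKO were not called. Eif2b4 had a log2 difference of 0.50 between the times (SE 0.139, edgeR adjusted p = 0.0847). Eif4e2 was at 136 and 144 CPM in dKO 48 h, 108 and 81.7 in WT 48 h, 99.3 and 94.8 in dKO 24 h, and 98.1 and 88.1 in WT 24 h, with its dKO 48 h libraries above the other 6 (0.52 between the times in dKO, SE 0.164, edgeR adjusted p = 0.112). Eif3c had -0.63 (SE 0.193, adjusted p = 0.106). Over the 48 members 29 had positive differences (60.4%, against 49.1%) and the median was 0.09, against -0.01 for all genes.

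**Figure D5:**
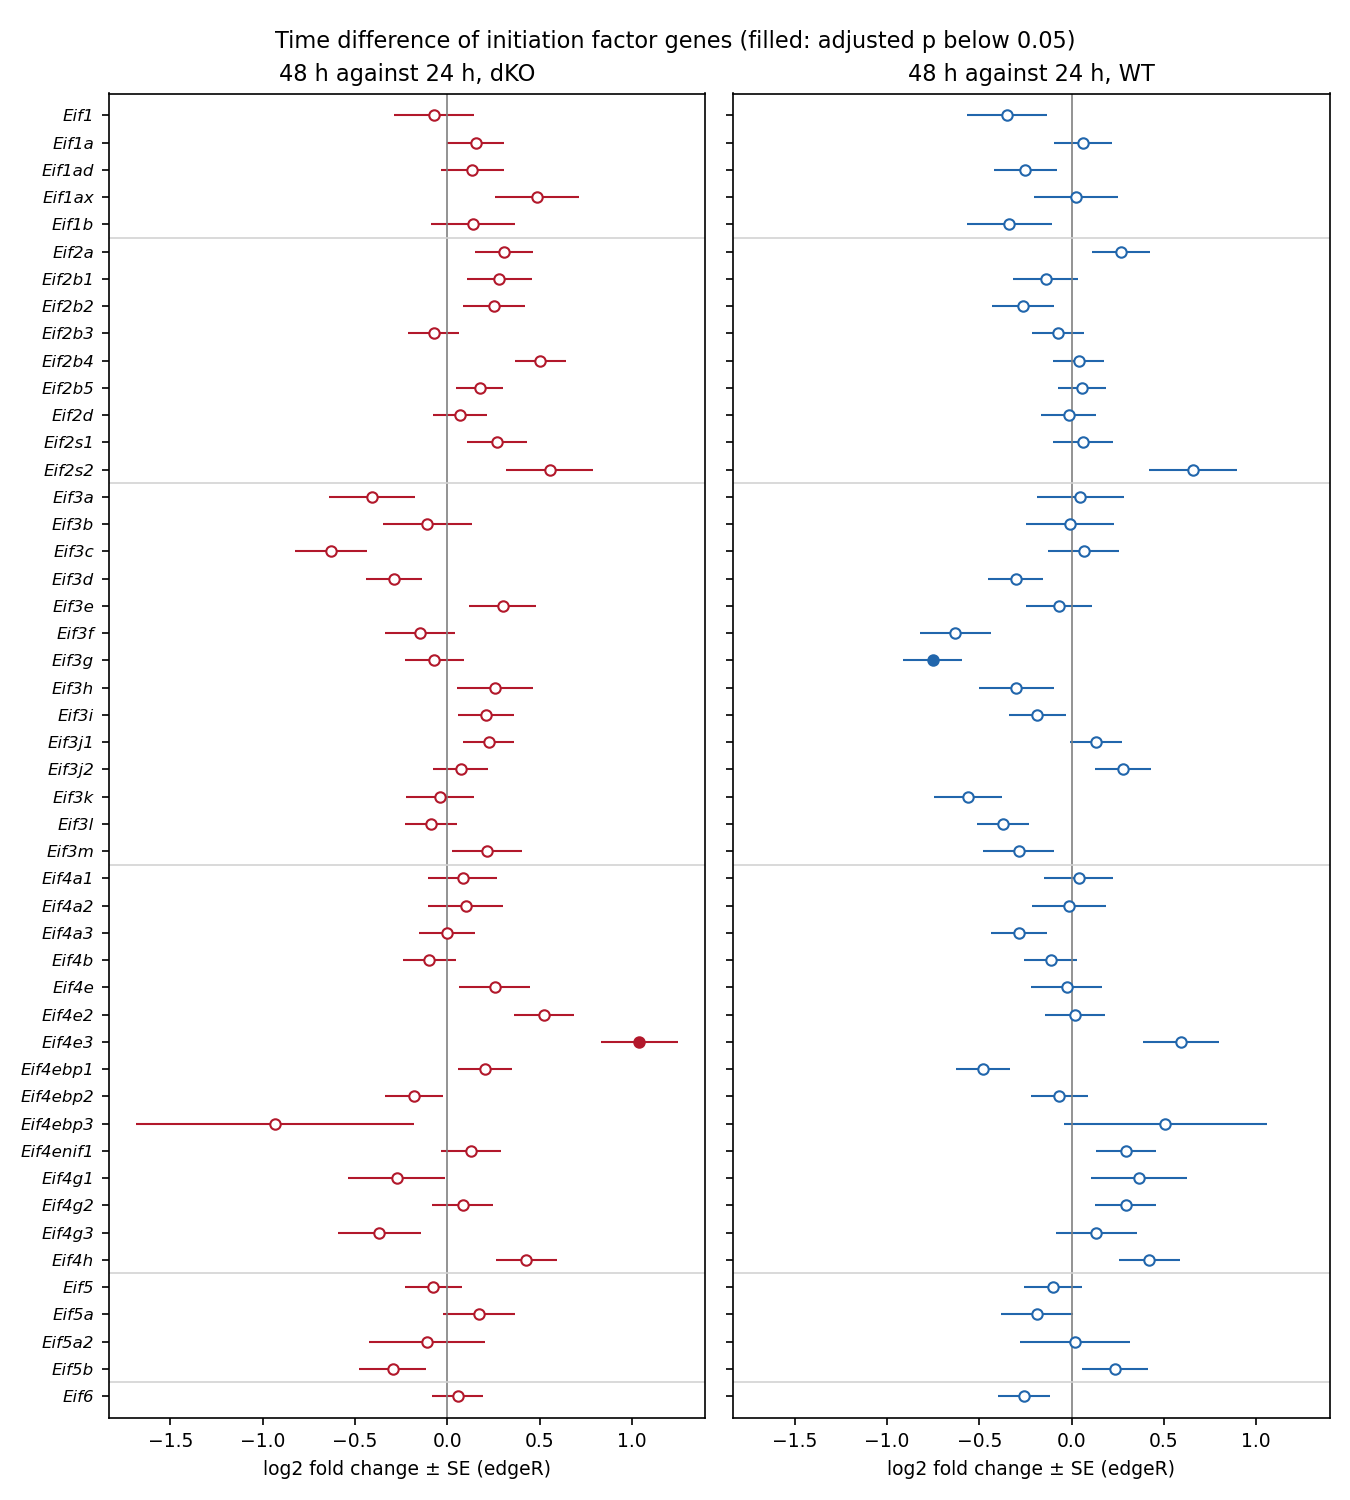
Log2 fold change with its SE (edgeR), 48 h against 24 h, of the 48 tested members in libraries labelled dKO (left) and WT (right); filled points have an adjusted p below 0.05. The filled points are Eif4e3 in dKO (1.04) and Eif3g in WT (-0.75).

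Whether the genotype difference changed with time was tested as an interaction. By edgeR no member and none of the 12742 genes was called (0%), and DESeq2 called 0 members. Without WT 48 h replicate 1, 21 members were called, 16 of them positive, with 26.1% of all genes (1538 positive, 1921 negative). At an unadjusted p below 0.05 stood 4 members and 12.4% of all genes. They were Eif4ebp1 (log2 0.69, SE 0.209, edgeR adjusted p = 0.369), Eif3g (0.68, SE 0.226, adjusted p = 0.369), Eif3c (-0.70, adjusted p = 0.375) and Eif2b4 (0.47, adjusted p = 0.384). The interaction and the comparisons at 48 h share the WT 48 h libraries. So the 48 h calls are not shown to differ from 24 h.

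Around the members, other genes of translation and its control moved in small numbers. At 48 h Eef1d, for an exchange factor of elongation, rose in dKO (log2 0.65, SE 0.17, edgeR adjusted p = 0.0396), as 1 of 12 tested elongation and termination genes. Deptor, for an inhibitor of mTOR, fell (log2 -1.32, SE 0.304, adjusted p = 0.0252), as 1 of 14 mTORC1 and S6 kinase genes, and was at 3.42 and 2.34 CPM in dKO 48 h and 6.15 and 7.85 in WT 48 h. None of 19 initiation partners and none of 6 genes of eIF2 alpha kinases and phosphatase was called at 48 h. At 24 h none of the 4 lists held a call. Over all tested genes 3.19% were called higher and 8.04% lower at 48 h (11.2% in all), and 0.432% were called at 24 h. With lists this short, few or no calls say little about them.

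Ddit4, for the mTORC1 inhibitor REDD1, rose with time in WT (log2 1.31, edgeR adjusted p = 0.00258) and in dKO (0.81, adjusted p = 0.0479). In WT Sesn2, which restrains mTORC1 when leucine is short, rose (0.92, adjusted p = 0.0475), and Ppp1r15a, for the GADD34 part of an eIF2 phosphatase, fell (-0.75, adjusted p = 0.0451). Of 109 tested genes starting with Rpl or Rps, S6 kinase genes among them, 96 had positive differences at 48 h (88.1%, against 48.2% of all genes). Their median was 0.30, with 1 called higher (0.917%, against 3.19%) and 4 lower (3.67%, against 8.04%).

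The hexamer CACGTG, the E-box bound by MYC and by MITF-family factors, was searched in the 250 bases before each RefSeq start. It reads the same on both strands. Promoters from RefSeq (GRCm38.p6) matched 37 of the 49 members. The motif stood in 9 of these 37 (24.3%), against 9.99% of tested genes and 6.86% of all genes with a promoter in the table. The 9 were Eif1b, Eif3f, Eif3k, Eif4a1, Eif4e, Eif4g1, Eif4h, Eif5a and Eif5a2, and none of them was called in any comparison. Of the 6 members called in some comparison only Eif2b1 and Eif3g had a promoter in the table, so the others were not searched. The sequences, 5′ to 3′ on the gene's strand with the motif in capitals, are the 200 bases upstream of the gene's start in both RefSeq and GENCODE, which for Eif3g is the GENCODE start, further upstream. They are shown for 2 called members that lack it there, Eif2b1 (chr5:124579132-124579331, minus) and Eif3g (chr9:20898624-20898823, minus). For contrast 3 members that hold it follow, Eif3f (chr7:108934215-108934414, plus), Eif3k (chr7:28981889-28982088, minus) and Eif4a1 (chr11:69672424-69672623, minus).
Eif2b1: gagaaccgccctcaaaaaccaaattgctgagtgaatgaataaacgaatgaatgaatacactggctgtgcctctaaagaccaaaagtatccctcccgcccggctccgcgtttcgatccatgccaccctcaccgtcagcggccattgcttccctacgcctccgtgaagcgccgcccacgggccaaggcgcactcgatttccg
Eif3g: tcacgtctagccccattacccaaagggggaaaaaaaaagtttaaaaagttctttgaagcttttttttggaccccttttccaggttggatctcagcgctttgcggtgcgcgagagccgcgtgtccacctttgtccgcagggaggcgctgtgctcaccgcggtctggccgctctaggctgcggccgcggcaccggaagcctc
Eif3f: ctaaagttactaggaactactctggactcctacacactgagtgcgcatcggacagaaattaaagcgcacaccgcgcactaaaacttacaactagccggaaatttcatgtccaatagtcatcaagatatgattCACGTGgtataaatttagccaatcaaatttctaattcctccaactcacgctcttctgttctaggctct
Eif3k: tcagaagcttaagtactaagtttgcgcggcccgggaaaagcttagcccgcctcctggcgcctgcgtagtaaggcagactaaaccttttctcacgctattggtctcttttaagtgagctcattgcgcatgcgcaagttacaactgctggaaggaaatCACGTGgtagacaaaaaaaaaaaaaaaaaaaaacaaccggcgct
Eif4a1: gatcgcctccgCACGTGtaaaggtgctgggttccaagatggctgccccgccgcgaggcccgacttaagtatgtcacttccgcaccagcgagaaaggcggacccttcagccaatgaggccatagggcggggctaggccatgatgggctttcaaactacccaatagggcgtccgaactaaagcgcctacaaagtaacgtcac
In Eif3f the motif begins 68 bases before the end of the stretch, in Eif3k 44 and in Eif4a1 189. A match is a description of these letters only.

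Reads of some members may be shared with other genes. In the GENCODE M21 annotation 14 of the 49 overlap a gene on the opposite strand, among them Eif6, Eif2a, Eif2b4, Eif2d, Eif4a2 and Eif5b, and it is not stated whether counting used strand. Eif4e3 and Eif4ebp3 overlap another coding entry on their own strand (Gm20696 and AC115631.1). Eif3j1 and Eif3j2, Eif1 and Eif1b, Eif1a and Eif1ax, Eif4a1 and Eif4a2, and Eif5a and Eif5a2 are near copies of each other, and their split is uncertain.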

How the data were processed

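RNA was measured in 8 libraries, 2 in each of 4 groups. The table of whole-number counts, with 1 entry per gene, was used as the authors deposited it. Trimming used cutadapt 1.18 and alignment to mm10 used Bowtie2 2.2.5, per the submitters' processing notes. How reads were counted (program, annotation, strand, molecular identifiers) is not given in the sources used here. Because the file's name hints at reads from 5′ ends, no level is compared between genes. Sums over genes weigh each gene by its level. In dKO 48 h the mean of Eif5a was 2430 CPM, of 2970 for the eIF5 sum. 1 unnamed entry equal to the column total was left out.

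All 8 libraries entered 1 edgeR 4.0.16 quasi-likelihood fit (R 4.3.3, limma 3.58.1) with group means and TMM scaling. filterByExpr with a minimum count of 10 kept 12742 of 24976 genes. Tests were two-sided, adjusted by Benjamini-Hochberg over all tested genes, and called below 0.05. SE was taken as the size of the log2 fold change divided by the root of the F statistic. Total counts were 5000952 to 21686236 per library, and a count of 0 allows up to 3 counts.

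The script was tested on simulated counts. Alternatives were RLE scaling, library size alone, scaling without ribosomal protein genes, no filter, a mean of at least 50 counts, DESeq2 1.42.0, only the groups compared, a replicate block, and each library left out. Dropping the WT 48 h group was added after seeing the data. Members, lists and tests were chosen with earlier results of these data known. Named with full values are all called members, the 4 of smallest p in a comparison with fewer than 4 calls, and examples per factor chosen after their values were seen. Transcript lengths and positions are from GENCODE M21, and replicate differences used log2 of CPM plus 0.5.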

Additional observations from a re-analysis of the deposited data

How the results depend on the processing

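The counts of called members moved with the setting, and so did the share of all genes called, given in brackets. At 48 h (4 called, dKO against WT; 11.2%) library size alone gave 20 (19.9%), no filter 12 (8 higher, 4 lower; 12.9%), the 48 h libraries alone 0 (3.66%) and the replicate block 2 (10.1%). RLE, scaling without ribosomal protein genes, the filter at a mean of 50, and DESeq2 gave 3 or 4 (8.97 to 11.2%). Leaving out 1 library gave 0 to 36 (0.113 to 49.2%). Over both times (1 called, 7.8%) RLE, scaling without ribosomal protein genes, the filter at a mean of 50, DESeq2 and the replicate block gave 0 (6.83 to 9.04%), library size alone 4 (10.1%) and no filter 4 (9.85%). Leaving out 1 library there gave 0 to 33 (0.422 to 42.3%). In WT between the times (1 called, 11.4%) library size alone gave 15 (26.4%), no filter 5 (8.62%), DESeq2 2 (8.66%), WT libraries alone 0 (0.251%), and leaving out 1 library 0 to 16 (4.49 to 31.8%). In dKO between the times (1 called, 3.63%) library size alone gave 2 (5.8%), no filter 3 (7.18%), dKO libraries alone 21 of 47 tested (37.3%), the added fit without the WT 48 h group 10 (25.7%), and leaving out 1 library 0 to 10 (0.241 to 25%). For the interaction (0 called) leaving out 1 library gave 0 to 21 (0 to 26.1%). At 24 h (0 called, 0.432%) every alternative that kept 2 libraries a group gave 0 members (0.439 to 2.78%). The cause of these moves was not tested.

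Library size alone moved the median log2 difference of all genes at 48 h to 0.15, against -0.03, and the calls over all genes to 1615 higher and 916 lower, against 406 and 1024. In WT between the times the split was 725 and 2641, against 1003 and 446, in dKO 143 and 596, against 224 and 239, and over both times 680 and 610, against 291 and 703. The 7 calls of members kept their direction under all alternatives run. Eif4ebp1 and Eif3g at 48 h held under 11 of 16, Eif2b1 under 7 and Eif6 under 6. Eif2b1 and Eif6 lost the call under the replicate block (adjusted p = 0.0514 and 0.0633 by edgeR), and Eif6 with DESeq2 (0.0531). Same-numbered deviations correlated at -0.08 to 0.18 between groups. With 1 replicate difference per group, this does not settle whether replicate numbers pair the samples. With 1 library left out, the lone library of its group is assumed to vary like the other groups. Having 2 libraries a group limits which differences can be called.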
